A study of Homo sapiens with 4 samples.

Results

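Neurexins and teneurins are adhesion proteins of the nerve cell surface, and 6 of their genes are described here in HEK293T cells. The genes, NRXN2, NRXN3, TENM1, TENM2, TENM3 and TENM4, were taken by symbol from a table of 38972 genes. The set was chosen by family name, with the difference in TPM between these same groups already known. Their differences, with the standard errors and intervals of a fit across all genes, are therefore given only to describe size and spread and are not read as tests. HEK293T is an established line derived from human embryonic kidney that carries the SV40 large T antigen. RNA was sequenced in 2 libraries labelled oeRNH1, from cells overexpressing RNase H1, and in 2 labelled oeFlag, from cells overexpressing the Flag epitope tag. No other treatment, allele or time is named for either group. The labels do not tell whether a group's libraries were grown as separate cultures, and p-values then reflect the spread among these libraries alone, which may be technical.

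Neurexins sit mainly on the presynaptic membrane and bind neuroligins, LRRTM proteins and cerebellins across the synaptic cleft. Each neurexin gene makes a long alpha form and a short beta form from separate promoters, and its transcripts are heavily spliced. Teneurins are large single-pass membrane proteins with a row of EGF-like repeats. They bind one another and the latrophilins, a group of adhesion G protein-coupled receptors, and are known for guiding the wiring of neural circuits. RNase H1 cuts the RNA strand of RNA-DNA hybrids, and the series concerns R-loops, in which a transcript stays paired with its template DNA.

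The values are TPM, a share of the library's transcripts that allows for transcript length, so levels can be set side by side between genes. TPM holds no sequencing depth, and the depth is unknown. RNASEH1, which encodes RNase H1, had 29.93 and 29.67 TPM in the libraries labelled oeRNH1, against 32.09 and 32.8 TPM in those labelled oeFlag. The targeted transcript was thus not higher where the label says it was overexpressed (log2 fold change -0.12 ± 0.06, SE, limma adjusted p = 0.260), and the groups are named by their labels. Log2 values of the tested genes correlated at 0.99 between libraries of the same group and at 0.98 between groups, and no library stood apart. Genes above 0 TPM numbered 24585 and 24568 in the libraries labelled oeRNH1, against 23556 and 23621 in those labelled oeFlag. Whether depth differed between the groups cannot be told from TPM. Of the 8 markers of the line fixed for this comparison, 7 averaged at least 1 TPM, with PAX8 the exception. The summed level ran from 1070 to 1083 TPM in libraries labelled oeRNH1, against 999 to 1020 TPM in those labelled oeFlag. Most of that sum was VIM, with 979.02 and 964.63 TPM in the oeRNH1 group and 867.46 and 887.65 TPM in the oeFlag group. The sum therefore does not describe the other markers. Among the 8, the neurofilament genes NEFL and NEFM were called lower (log2 -0.41 ± 0.06 and -0.52 ± 0.07, SE) and VIM higher (0.15 ± 0.03). Any link of these to the neurexins and teneurins was not tested. Of 8 markers of mature neurons, 6 reached 1 TPM and SLC17A6 was at 0 in every library. Their sum was 28.3 and 29.7 TPM in the libraries labelled oeRNH1, against 30.6 and 26.6 TPM in those labelled oeFlag. The sum joins differences in opposite directions. RBFOX3 had a lower mean in the oeRNH1 group (4.73 and 8.25 TPM, against 12.73 and 8.15 TPM), with overlapping values. SYT1, SNAP25, SLC17A7, GAD1 and SYN1 had higher means there, and none of these genes was called. UMOD, of the kidney tubule, was at 0 throughout.

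Most of the members are very long, and only NRXN2 and TENM4 lie on the same chromosome. In GENCODE release 29 on GRCh38, NRXN3 spans 1698 kb of chromosome 14 (78170373 to 79868290, plus strand). TENM2 spans 979 kb of chromosome 5 (167284799 to 168264157, plus strand), and TENM4 covers 788 kb of chromosome 11 (78652831 to 79440948, minus strand). TENM3 spans 659 kb of chromosome 4 (182143987 to 182803024, plus strand), and TENM1 covers 588 kb of the X chromosome (124375903 to 124963817, minus strand). NRXN2 is the short one, with 117 kb of chromosome 11 (64606174 to 64723188, minus strand). Their longest transcripts also differed in GC content, which was 64.5% for NRXN2, 54.0% for TENM4, 52.1% for TENM2, 47.1% for TENM3, 42.2% for TENM1 and 41.5% for NRXN3.

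Promoter sequences of NRXN3, TENM1 and TENM3 were picked with the levels of these genes known. NRXN3 and TENM1 had lower levels together in the libraries labelled oeRNH1, while TENM3 stayed near its level in those labelled oeFlag. Any link of promoter sequence to these differences was not tested. RefSeq on GRCh38.p14 gave 10 start windows for 5 of the members. Each line holds the 250 bases before an annotated start, on the strand of the gene, with matches to a GC box (GGGCGG or its complement CCGCCC) in capitals. NRXN3 is given at its first start (chr14:78170123-78170372) and at its innermost start (chr14:79279130-79279379). TENM1 is given at its outer start (chrX:125204313-125204562) and TENM3 at its first start (chr4:182143713-182143962). The outer TENM1 start, at 125204312 in RefSeq, lies outside the GENCODE span given above. That span ends at the inner RefSeq start, 124963817, whose window is not printed. The outer TENM1 window therefore does not describe the inner start.
NRXN3, first start: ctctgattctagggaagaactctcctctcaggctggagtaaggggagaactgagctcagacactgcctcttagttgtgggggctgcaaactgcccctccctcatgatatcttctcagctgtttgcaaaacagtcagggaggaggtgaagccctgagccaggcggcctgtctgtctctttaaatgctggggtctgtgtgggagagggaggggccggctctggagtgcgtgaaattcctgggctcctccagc
NRXN3, innermost start: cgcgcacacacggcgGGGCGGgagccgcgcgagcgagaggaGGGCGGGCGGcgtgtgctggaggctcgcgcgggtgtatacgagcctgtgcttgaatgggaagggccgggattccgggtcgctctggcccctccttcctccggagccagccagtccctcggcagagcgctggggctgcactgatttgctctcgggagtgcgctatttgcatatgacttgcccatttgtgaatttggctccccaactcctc
TENM1, outer start: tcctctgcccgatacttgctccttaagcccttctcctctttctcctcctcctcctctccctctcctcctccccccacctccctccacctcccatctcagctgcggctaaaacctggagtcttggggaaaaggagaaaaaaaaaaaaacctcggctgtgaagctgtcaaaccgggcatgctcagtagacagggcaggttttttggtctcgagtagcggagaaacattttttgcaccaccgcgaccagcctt
TENM3, first start: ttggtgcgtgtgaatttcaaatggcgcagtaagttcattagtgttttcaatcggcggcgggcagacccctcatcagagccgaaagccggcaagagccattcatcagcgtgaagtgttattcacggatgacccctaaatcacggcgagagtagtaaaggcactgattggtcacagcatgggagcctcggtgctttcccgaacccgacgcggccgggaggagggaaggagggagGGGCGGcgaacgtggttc

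These windows had little in common. The innermost NRXN3 window held 3 GC box matches, one overlapping another, and 24 CpG dinucleotides, whereas the first NRXN3 window held no match and 3 CpG. The TENM1 window held no match and 8 CpG, and the TENM3 window 1 match and 20 CpG. Over all 35116 RefSeq windows of the same length, 42.6% held a GC box match on either strand and the median CpG count was 11. The E-box CACGTG had no match in these 4 windows and was found in 6.34% of all windows. The AP-1 motif TGACTCA, read on both strands, had none either, against 4.20% of all windows, nor did TATAAA, on both strands, against 10.7%. Among the windows not shown, the middle NRXN3 start held 1 GC box match and 5 CpG, and the second TENM3 start 1 match and 35 CpG. No GC box match was held by the inner TENM1 start (1 CpG), the TENM4 start (27 CpG) or the TENM2 starts (1 and 4 CpG). The TENM2 start with 1 CpG held 2 matches to TATAAA, read on both strands. No other unprinted window matched TATAAA, and none matched the E-box or AP-1 motif. Which start is used in these cells cannot be read from a table with 1 value per gene.

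Levels ranged from about 10 TPM to nearly nothing. In the libraries labelled oeRNH1 the order was TENM3 at 9.47 ± 0.368 TPM (SD, n = 2 in this and the following groups), NRXN2 at 6.25 ± 0.7495, TENM1 at 4.53 ± 0.113, NRXN3 at 4.42 ± 0.799, TENM4 at 0.770 ± 0.537 and TENM2 at 0.0450 ± 0.0212. In the libraries labelled oeFlag it was TENM3 at 9.97 ± 0.269 TPM, TENM1 at 8.195 ± 0.276, NRXN3 at 8.06 ± 0.170, NRXN2 at 5.50 ± 0.940, TENM4 at 1.60 ± 0.304 and TENM2 at 0.0150 ± 0.00707. The values of TENM1 and NRXN3 overlapped in each group, and every other pair of neighbours in the order was separate. TENM3 was highest in every library and TENM2 lowest. The place of NRXN2 differed, above TENM1 and NRXN3 in the libraries labelled oeRNH1 and below both in those labelled oeFlag.

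**Figure D1:**
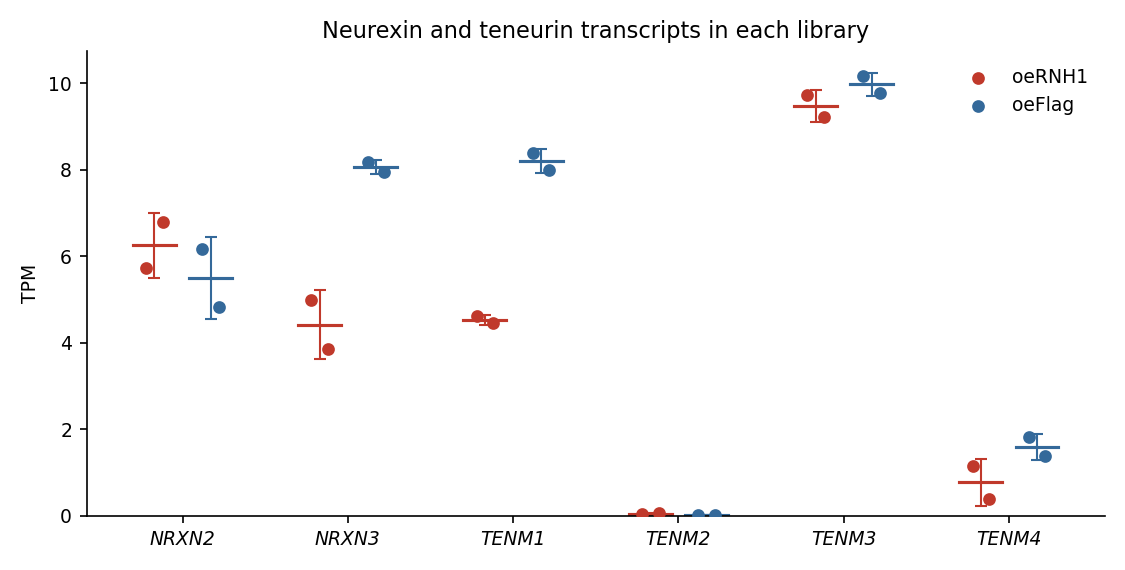
TPM of each gene in each library (points), with the group mean (horizontal bar) and SD over 2 libraries (whisker), for libraries labelled oeRNH1 (left, red) and oeFlag (right, blue). NRXN3 and TENM1 lie between 3.85 and 4.98 TPM in the libraries labelled oeRNH1 and between 7.94 and 8.39 TPM in those labelled oeFlag, while TENM3 stays between 9.21 and 10.16 TPM.

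Of the 6 genes, 5 averaged at least 1 TPM over the 4 libraries and entered the fit across 15651 genes, and TENM2 did not. The fit was limma on log2(TPM + 1), and a gene was called at a Benjamini-Hochberg adjusted p under 0.05 over all tested genes. By that rule NRXN3 and TENM1 counted as lower in the libraries labelled oeRNH1 and none as higher, and the count was 0 in each fit that left out 1 library. Neither NRXN3 nor TENM1 was called with no filter on low values or with variances free of an intensity trend, where all 4 libraries were kept. Among all tested genes 5.54% were called lower and 6.3% higher under the main setting, 11.8% in all. Groups did not overlap in 4 of the 5, each lower in the libraries labelled oeRNH1, where 60.7% of all tested genes did not overlap, 29.4% lower and 31.3% higher. Because the members were picked with these values in view, nothing is read from these counts. In bulk RNA, fewer cells with a transcript and less transcript per cell cannot be told apart.

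NRXN3 encodes a presynaptic receptor for neuroligins. It had 4.98 and 3.85 TPM in the libraries labelled oeRNH1, against 8.18 and 7.94 TPM in those labelled oeFlag. Both values of the oeRNH1 group lay well below both of the oeFlag group. The mean ratio was 0.548, and the log2 fold change was -0.75 ± 0.14 (SE) with a 95% interval from -1.10 to -0.40. Only 1.27% of tested genes had a more negative value. After a correction for GC content, exon length and gene span the log2 fold change was -0.46, and NRXN3 no longer counted as lower.

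NRXN2 encodes the sister receptor, with the same classes of ligand. It had 5.72 and 6.78 TPM in the libraries labelled oeRNH1, against 6.16 and 4.83 TPM in those labelled oeFlag. The groups overlapped, and the spread within each was about as large as the difference between them. Its log2 fold change was 0.16 ± 0.15 (SE), with a 95% interval from -0.21 to 0.54. It was 0.31 without oeFlag replicate 1, 0.014 without oeFlag replicate 2, 0.057 without oeRNH1 replicate 2 and 0.27 without oeRNH1 replicate 1, and 0.28 after correction for GC content and 0.36 after correction for GC content, exon length and span. The ratio of NRXN3 to NRXN2 was 0.871 and 0.568 in the libraries labelled oeRNH1, against 1.33 and 1.64 in those labelled oeFlag. NRXN3 was thus the less abundant of the pair in each library of the oeRNH1 group and the more abundant in each of the oeFlag group.

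TENM1 encodes a teneurin, one of the vertebrate relatives of the fly proteins Ten-m and Ten-a. It had 4.61 and 4.45 TPM in the libraries labelled oeRNH1, against 8.39 and 8.0 TPM in those labelled oeFlag. Replicates lay close together and the groups were far apart. The mean ratio was 0.553, and the log2 fold change was -0.73 ± 0.11 (SE) with a 95% interval from -1.01 to -0.46. Of tested genes 1.35% had a more negative value. STAG2, a cohesin subunit on the opposite strand, shares 241 annotated exon bases with TENM1, or 1.87% of its exon length. Its level was 278 and 255 TPM in the libraries labelled oeRNH1, against 236 and 226 TPM in those labelled oeFlag. Without a stated use of strand, reads from the shared bases cannot be assigned to one of these genes.

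TENM3, a teneurin known for matching pre- and postsynaptic partners in the visual system and hippocampus of mice, had 9.73 and 9.21 TPM in the libraries labelled oeRNH1, against 10.16 and 9.78 TPM in those labelled oeFlag. The values did not overlap, but the gap of the nearest libraries was small beside the spread within each group. The log2 fold change was -0.07 ± 0.10 (SE), with a 95% interval from -0.30 to 0.17, and it turned to 0.15 after correction for GC content, exon length and span. TENM3-AS1, the antisense transcript at its start, had 2.67 and 1.70 TPM in the libraries labelled oeRNH1, against 2.03 and 2.07 TPM in those labelled oeFlag, and shares 115 annotated exon bases with TENM3.

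TENM4, a teneurin that promotes oligodendrocyte differentiation in mice, had 1.15 and 0.39 TPM in the libraries labelled oeRNH1, against 1.81 and 1.38 TPM in those labelled oeFlag. Both oeRNH1 values were the lower, but they differed from each other more than the nearest values of the groups did. The log2 fold change was -0.58 ± 0.28 (SE), with a 95% interval from -1.26 to 0.10. It moved to -0.27 without oeRNH1 replicate 2, to -0.90 without oeRNH1 replicate 1, to -1.10 with a pseudocount of 0.1 and to -0.20 with a pseudocount of 5. TENM2, the latrophilin ligand also called lasso, had 0.03 and 0.06 TPM in the libraries labelled oeRNH1, against 0.02 and 0.01 TPM in those labelled oeFlag. At such levels no fold change is given.

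The summed level of the teneurins was 15.52 and 14.11 TPM in the libraries labelled oeRNH1, against 20.38 and 19.17 TPM in those labelled oeFlag. TENM3 made up 62.7% and 65.3% of that sum in the oeRNH1 group and 49.9% and 51.0% in the oeFlag group. TENM1 made up 29.7% and 31.5% in the oeRNH1 group and 41.2% and 41.7% in the oeFlag group. The ratio of TENM1 to TENM3 was 0.478 ± 0.00663 in the libraries labelled oeRNH1 and 0.822 ± 0.00551 in those labelled oeFlag (SD, n = 2 each). A ratio within a library does not depend on how that library was scaled, so this shift shows unequal change of the pair and does not say which one changed.

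**Figure D2:**
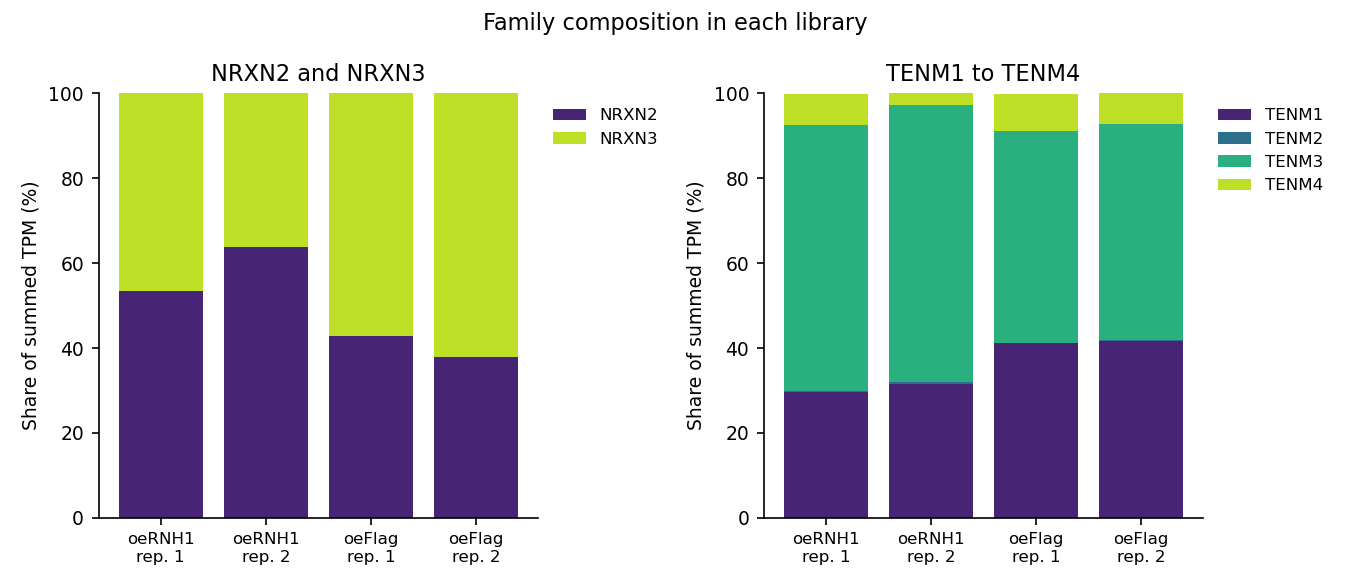
Share (%) of the summed TPM of NRXN2 and NRXN3 (left panel) and of TENM1 to TENM4 (right panel) that each gene took in each library, oeRNH1 libraries left of oeFlag libraries. NRXN2 took 53.5% and 63.8% in the oeRNH1 libraries and 43.0% and 37.8% in the oeFlag libraries, and TENM2 is too low to be seen.

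Gene span was not used to choose the members, and the other very long genes were lower as a class. Of 167 tested genes of 500 kb and over, members left out, 78.4% had a log2 fold change below 0, and the median was -0.19. In this class 9.58% were called lower and 1.20% higher. Medians were -0.09 for 871 genes of 200 to 500 kb, 0.02 for 4103 of 50 to 200 kb and 0.01 for 10164 of under 50 kb. Each oeRNH1 library lay below each oeFlag library over the longest class, with medians of the differences from -0.20 to -0.18, while replicates differed by medians of 0 in the oeRNH1 group and -0.01 in the oeFlag group. GC content fell with span, from a median of 51.1% in the shortest class to 43.7% in the longest. After correction for GC content alone the median of the longest class was -0.23, against -0.19 as reported. Correction for GC content, exon length and span together, which removes a trend with span by construction, brought it to -0.01.

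Set among these 167 genes, NRXN3 and TENM1 had 9 and 11 genes more negative. TENM4 had 16 below it, whereas TENM3 had 120. These places describe values known when the members were picked, so nothing is read from them. NRXN2, shorter than the class, fell at the 74.4th percentile of all tested genes. The largest decreases called in the class were SMYD3, a lysine methyltransferase (log2 -0.98 ± 0.13, SE), SDK1, a synaptic adhesion protein of the immunoglobulin superfamily (-0.98 ± 0.18), and SHANK2, a postsynaptic scaffold (-0.91 ± 0.19). The 2 genes called higher were CPNE4, a copine (1.04 ± 0.23), and PCDH9, a protocadherin (0.54 ± 0.08). None of these 5 calls was made when any one library was left out, in fits where the lone library is assumed to vary like the other group. After correction for GC content, exon length and span, SDK1 (-0.62, limma adjusted p = 0.0848) and SHANK2 (-0.65, limma adjusted p = 0.0861) were not called. With pseudocounts of 0.1 and 5, SDK1 was at -1.54 and -0.38, SHANK2 at -1.35 and -0.38, and CPNE4 at 1.95 and 0.36.

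**Figure D3:**
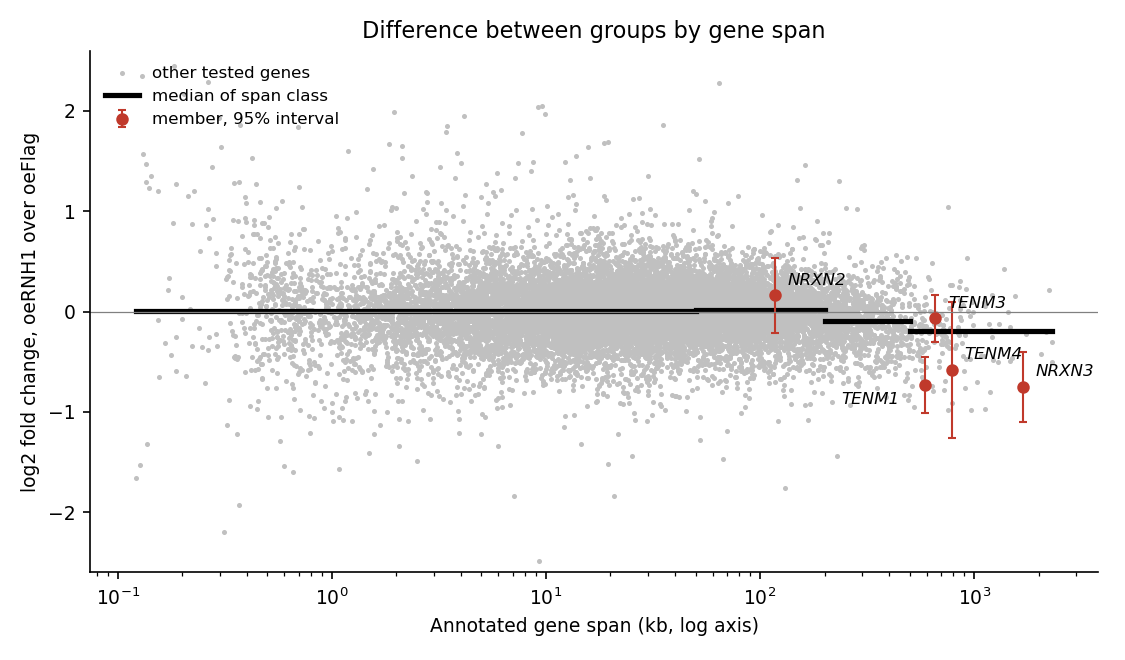
Log2 fold change (log2(TPM + 1) scale, oeRNH1 over oeFlag) of every tested gene with a gene model (grey) against its annotated span (kb, log axis), with medians of 4 span classes (black bars) and the tested members with 95% intervals (red); 3 genes lie outside the axis. The bar for 500 kb and over sits at -0.19, with NRXN3 at -0.75 and TENM1 at -0.73 below it and TENM3 at -0.07 above it.

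Partners and regulators were drawn from 7 lists of 107 genes in all, of which 73 were tested. Of these 2 were called higher and 3 lower, or 2.74% and 4.11%, against 6.3% and 5.54% of all tested genes. Values below 0 made up 76.7% of the 73, against 49.4% of all tested genes, and the medians were -0.11 and 0.00. An unadjusted p under 0.05 (limma) was reached by 22 of the 73, against 4906 of all 15651 tested genes, the background for the counts of that kind given per list.

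Neurexin ligands were tested in 14 of 30 cases. None was called (limma, with none at an unadjusted p under 0.05 either), and their median was -0.10. NLGN2, the neuroligin of inhibitory synapses, had 21.46 and 19.22 TPM in the libraries labelled oeRNH1, against 23.10 and 23.88 TPM in those labelled oeFlag (log2 -0.20 ± 0.08, SE). CLSTN1, a calsyntenin and the most abundant of the list, differed by -0.04 ± 0.05, with a 95% interval from -0.17 to 0.08. CBLN1, a secreted cerebellin, had 6.62 and 7.20 TPM in the libraries labelled oeRNH1, against 7.58 and 7.10 TPM in those labelled oeFlag.

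Latrophilins, with the FLRT and UNC5 proteins that bind with them, were tested in 8 of 11 cases. None was called, although 4 had an unadjusted p under 0.05 (limma), and 7 of 8 were below 0, with a median of -0.31. FLRT3 came nearest, at 8.51 and 8.10 TPM in the libraries labelled oeRNH1, against 11.30 and 11.10 TPM in those labelled oeFlag (log2 -0.39 ± 0.10, SE, limma adjusted p = 0.0514). It was called lower with a pseudocount of 0.1, with median-of-ratios scaling, with robust variances, with a minimum mean of 5 TPM and under both corrections, where limma's adjusted p ran from 0.0353 to 0.0496. FLRT3 was not called with a pseudocount of 5, quantile normalization, no filter, variances free of an intensity trend or the replicate block. ADGRL1, which encodes latrophilin-1, had 29.74 and 27.59 TPM in the libraries labelled oeRNH1, against 38.02 and 33.60 TPM in those labelled oeFlag (limma adjusted p = 0.0677), and it too was called lower with a minimum mean of 5 TPM. ADGRL2, the most abundant of the list, had -0.12 ± 0.06, with a 95% interval from -0.26 to 0.01. The list median was -0.16 after correction for GC content, exon length and span, and ADGRL2 turned to 0.03. The 4 tested relatives in the neurexin superfamily, the contactin-associated proteins, held no call and 2 unadjusted p under 0.05 (limma), with CNTNAP2, itself a very long gene, at -0.30 ± 0.12.

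Inside the cell, neurexins bind PDZ scaffolds such as CASK, and 16 of 17 intracellular partners and scaffolds of neurexins or teneurins were tested. SDCBP, which encodes syntenin, rose to 256.25 and 244.41 TPM in the libraries labelled oeRNH1, against 205.80 and 206.99 TPM in those labelled oeFlag (log2 0.28 ± 0.04, SE, limma adjusted p = 0.0202). EPB41, the cytoskeletal protein 4.1R, fell to 74.24 and 72.91 TPM in the libraries labelled oeRNH1, against 85.97 and 85.76 TPM in those labelled oeFlag (log2 -0.22 ± 0.05, SE, limma adjusted p = 0.0414). The other 14 were not called, CASK among them at -0.02 ± 0.08. The most abundant one that was not called, EPB41L2, differed by -0.02 ± 0.04, with a 95% interval from -0.13 to 0.08.

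Proteases that shed or trim neurexins and teneurins had no call among 12 tested, with 2 at an unadjusted p under 0.05 (limma) and a median of -0.01. ADAM10, a sheddase, had 69.39 and 62.55 TPM in the libraries labelled oeRNH1, against 65.59 and 67.64 TPM in those labelled oeFlag. APH1A, a gamma-secretase subunit and the most abundant of the list, had -0.10 ± 0.06. Factors of neurexin splicing had no call among 8 tested, with 2 at an unadjusted p under 0.05 (limma) and a median of -0.09. KHDRBS1, or SAM68, which controls an alternative segment of neurexin transcripts, had 290.50 and 276.89 TPM in the libraries labelled oeRNH1, against 258.00 and 258.99 TPM in those labelled oeFlag (log2 0.13 ± 0.04, SE, limma adjusted p = 0.0919). PTBP1, the most abundant of the list, had -0.08 ± 0.04.

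Other synaptic organizers held 3 of the 5 calls, among 11 tested of 20. The receptor phosphatase PTPRF fell to 32.53 and 31.51 TPM in the libraries labelled oeRNH1, against 43.90 and 51.56 TPM in those labelled oeFlag (log2 -0.56 ± 0.09, SE, limma adjusted p = 0.0211). Its relative PTPRS fell to 24.37 and 21.92 TPM in the libraries labelled oeRNH1, against 31.16 and 30.03 TPM in those labelled oeFlag (log2 -0.39 ± 0.08, SE, limma adjusted p = 0.0359), a call not made after GC correction (adjusted p = 0.0856). SLITRK3, a ligand of the related phosphatase PTPRD at inhibitory synapses, rose to 5.65 and 4.78 TPM in the libraries labelled oeRNH1, against 3.03 and 2.68 TPM in those labelled oeFlag (log2 0.69 ± 0.15, SE, limma adjusted p = 0.0397). None of the 5 partner calls was made when any one library was left out. After GC correction SLITRK3 too was not called (limma adjusted p = 0.0501). After correction for GC content, exon length and span, SDCBP (0.16, limma adjusted p = 0.0609), EPB41 (-0.19, adjusted p = 0.0630), PTPRS (-0.18, adjusted p = 0.187) and SLITRK3 (0.63, adjusted p = 0.0571) were not called, and PTPRF was (-0.43, adjusted p = 0.0427).

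**Figure D4:**
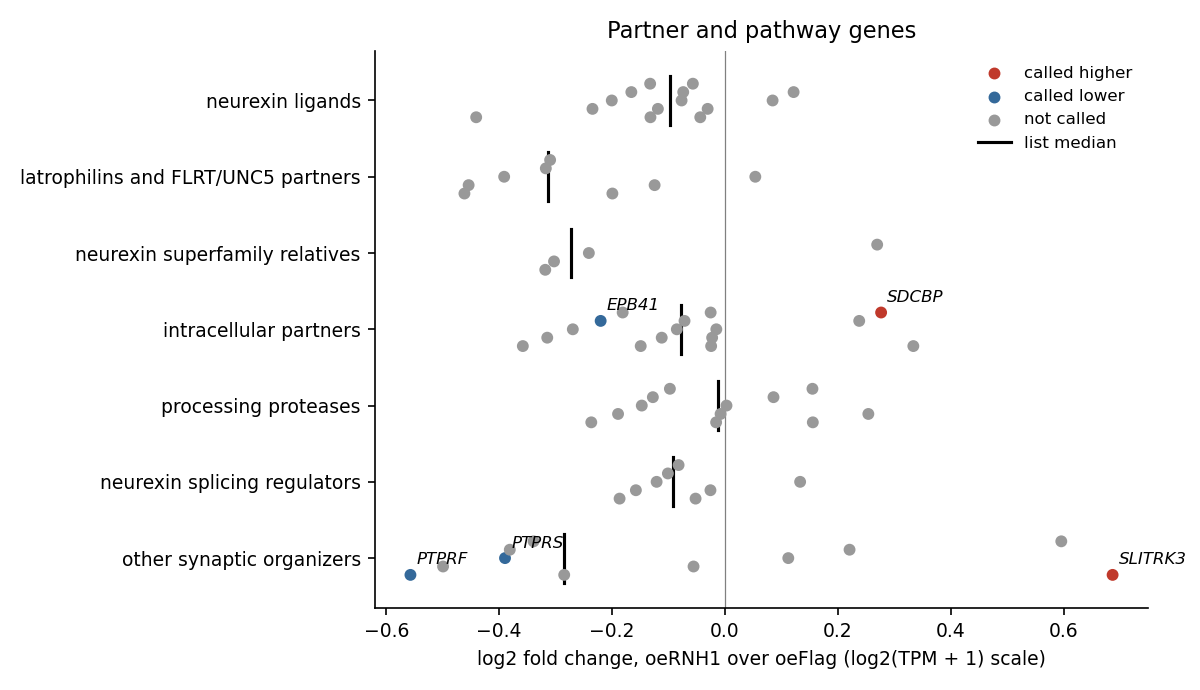
Log2 fold change (oeRNH1 over oeFlag) of each tested partner gene (point) by list, with the list median (black line) and calls in colour. SDCBP and SLITRK3 lie at 0.28 and 0.69, EPB41, PTPRS and PTPRF at -0.22, -0.39 and -0.56, and the latrophilin list has the lowest median, -0.31.

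The genes most like each member over the 4 libraries were sought by the distance between centred log2(TPM + 1) profiles. MAP2K6, a kinase upstream of p38 (distance 0.0309), and LMF1, a lipase maturation factor (0.0547), were nearest to NRXN3. BBS9, a subunit of the BBSome (0.0468), and KLHL17, an actin-binding Kelch protein (0.0486), were nearest to TENM1. Within a distance of 0.1 lay 7 genes for NRXN3, 25 for TENM1 and 1265 for TENM3. With only 4 libraries, likeness of this kind is a description. Of these 4 genes BBS9 spans 477 kb and KLHL17 5.13 kb, and any link of span to these profiles was not tested.

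**Figure D5:**
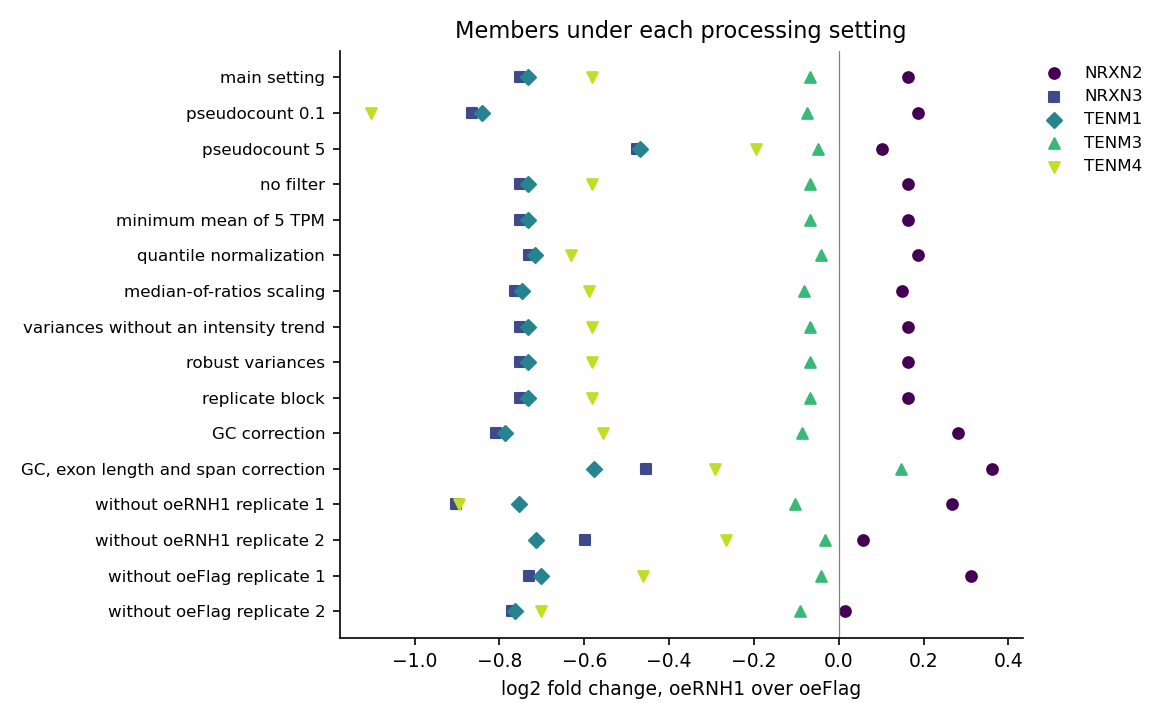
Log2 fold change (oeRNH1 over oeFlag) of the 5 tested members under the main setting and 15 others. NRXN3 runs from -0.90 to -0.46 and TENM1 from -0.84 to -0.47, NRXN2 from 0.014 to 0.36, TENM4 stays below 0, and TENM3 turns to 0.15 under the correction that includes span.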

How the data were processed

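The 4 HEK293T libraries were 2 labelled oeRNH1 and 2 labelled oeFlag. Per the labels' protocols, RNA was taken with TRIzol and libraries were built with a VAHTS mRNA-seq V3 kit. The authors deposited 1 table of TPM with a column per library. STAR and hg38 are named in the submitters' processing notes. How the TPM were made from aligned reads, with which annotation and versions, and whether strand was used, is not given in the sources used here.

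Genes averaging 1 TPM or more (15651 of 38972) were compared as log2(TPM + 1) with limma 3.58.1 in R 4.3.3, with variances following an intensity trend, two-sided, adjusted by Benjamini-Hochberg. The added 1 makes log2 fold changes smaller than the TPM ratio, most at low levels. The procedure was tested on simulated data. Gene models from GENCODE release 29 matched 97.8% of tested genes, by identifier or symbol. Depth is unknown, so no counting interval was computed.

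The members and lists were chosen with earlier results of these data known. Named genes were the members, RNASEH1, called genes of each list (up to 4) with its most abundant member, the nearest profiles and the largest called changes among genes of 500 kb and over. NLGN2, CBLN1, FLRT3, ADGRL1, CASK, EPB41L2, ADAM10, KHDRBS1, STAG2 and TENM3-AS1 were named after their values were seen. Some genes of the lists are not reported here. Alternatives covered pseudocounts, filters, scaling, variances, the replicate number as a block, corrections for GC content, exon length and span (a spline of 4 degrees of freedom per property and library), and leaving out each library. Plots used Python 3.11.15 and matplotlib 3.10.9.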

Additional observations from a re-analysis of the deposited data

How the results depend on the processing

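The number of genes called, 1853 as reported, was 0 with no filter on low values and 1 with variances free of an intensity trend (limma, with 5655 and 4337 genes at an unadjusted p under 0.05). Leaving out 1 library gave 0 to 15 calls, with 3367 to 4035 genes at an unadjusted p under 0.05. In the same fits the partner genes called, 5 as reported, fell to 0, and the very long genes called lower, 16 as reported, fell to 0. Partner calls numbered 9 with a minimum mean of 5 TPM, 8 with the replicate block and 2 after correction for GC content, exon length and span, which also left 3 very long genes called lower.

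That correction turned the sign of TENM3 (0.15), CLSTN1 (0.045), ADGRL2 (0.033), CNTNAP2 (0.060) and PTBP1 (0.020). GC correction alone turned CLSTN1 (0.019) and PTBP1 (0.0064). Among the nearest profiles, IRX4, near NRXN2, ran from -0.0073 to 0.315 as each library was left out, below 0 without oeFlag replicate 2. The cause of these changes was not tested, apart from what each construction removes. Same-numbered libraries did not deviate together (correlation 0.03), so the numbers are not taken as pairs. The replicate block gave 2442 calls in all, ADGRL1 among them. TENM2, and TENM4 at the stricter filter, could not be tested. With 2 libraries a group and no depth in TPM, the precision at the level of TENM4 is unknown beyond the spread shown.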
